A study of Homo sapiens with 12 samples.

Results

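The genes described here are the human zinc finger genes whose symbol is ZNF followed by digits alone, without ZNF143 and ZNF22. They were chosen by symbol, in a series whose earlier results were known, and each gene was read from 1 probe set, the one with the highest mean over all arrays. This gave 210 genes of 11963 measured. A further 19 ZNF genes whose symbol carries a letter after the digits, such as pseudogenes and lettered paralogues, were kept apart.

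The 12 samples came from K562, an established human leukemia cell line that the labels call an AML line and that is generally known as a line from chronic myeloid leukemia in blast crisis. The 4 groups of 3 arrays were K562 with the empty pEGFP-C2 vector, K562 with pEGFP-CXXC5, which makes human CXXC5 fused to EGFP, K562 with a scrambled shRNA in the pLKO vector, and K562 with CXXC5 shRNA in pLKO. The vectors of the first pair of groups were given by nucleofection, a transient transfection, and the shRNAs of the second pair by stable lentiviral infection, so the controls differ from each other in delivery and in construct. All groups were in serum-free medium with 100 ng/ml Wnt3a, and RNA was taken after 8 h. For the knockdown a pair of shRNA clones is named without saying which sample carried which. The labels do not tell whether the 3 replicates of a group were grown apart, and the p-values rest on a spread that could be technical. CXXC5 itself had no named probe set here, so the groups are called by their labels with no check of the targeted gene. Arrays read the RNA of a whole culture, so fewer expressing cells and less RNA per cell cannot be told apart.

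ZNF genes form the largest family of human transcription factors. Most encode proteins with a row of C2H2 zinc fingers, small folds held together by a zinc ion, which read DNA bases, and many carry at their start a KRAB domain that recruits the corepressor TRIM28 and, through it, the histone methyltransferase SETDB1. Many KRAB zinc finger genes lie side by side in clusters on chromosome 19 and silence transposable elements, while others in the family without a KRAB domain act in splicing, mitosis or chromatin complexes. Their transcripts are usually scarce and often short-lived.

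Promoter windows of the genes were taken from RefSeq (GRCh38.p14, 250 bases before to 50 bases after the start of the gene), which held 181 of the 210 genes. The 7-base sequence CCGGAAG, a form of the site that ETS factors bind, was present on either strand in 41.4% of these windows. Other forms of the site were not counted. The share was 14.7% in the windows of 9382 other measured genes and 10.3% in all 35116 RefSeq windows. The matches clustered at the start of the gene: the first base of the match lay at a median of -24 in ZNF genes (quartiles -66 and -13.5) and -48 in other genes. The windows of ZNF genes on chromosome 19 held it in 46.5% of cases and those of ZNF genes elsewhere in 36.8%, while other genes of chromosome 19 held it in 14.5%. Zinc finger genes named ZBTB, ZSCAN, ZKSCAN or ZFP held it in 11 of 33 windows (33.3%). The 6 windows here belong to ZNF genes named below for their differences between groups, and show where the sequence lies. Among named genes not shown, some windows hold it, as in ZNF23 and ZNF268, and others do not, as in ZNF142 and ZNF692. The 6 windows are thus no measure of how often such genes hold it. They are written 5′ to 3′ on the strand of the gene, with capitals for CCGGAAG or its reverse complement CTTCCGG and, in ZNF277, also for GGAATTGTA, the reverse complement of the core TACAATTCC of the motif of ZNF143 and ZNF76. ZNF629, ZNF551, ZNF35 and ZNF239 were among the genes lower in scrambled shRNA arrays, and ZNF335 and ZNF277 among those higher.
ZNF629 (chr16:30787156-30787455, minus strand): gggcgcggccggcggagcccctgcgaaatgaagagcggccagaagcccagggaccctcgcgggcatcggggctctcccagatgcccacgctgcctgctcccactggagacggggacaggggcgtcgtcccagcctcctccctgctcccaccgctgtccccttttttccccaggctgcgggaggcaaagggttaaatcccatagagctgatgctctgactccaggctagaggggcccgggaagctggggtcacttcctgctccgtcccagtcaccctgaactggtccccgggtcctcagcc
ZNF551 (chr19:57681727-57682026, plus strand): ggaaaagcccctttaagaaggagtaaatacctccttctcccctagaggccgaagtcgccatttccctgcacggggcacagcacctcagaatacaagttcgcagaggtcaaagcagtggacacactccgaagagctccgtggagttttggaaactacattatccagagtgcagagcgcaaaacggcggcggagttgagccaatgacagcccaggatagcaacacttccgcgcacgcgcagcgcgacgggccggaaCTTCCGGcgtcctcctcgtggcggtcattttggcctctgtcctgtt
ZNF35 (chr3:44648482-44648781, plus strand): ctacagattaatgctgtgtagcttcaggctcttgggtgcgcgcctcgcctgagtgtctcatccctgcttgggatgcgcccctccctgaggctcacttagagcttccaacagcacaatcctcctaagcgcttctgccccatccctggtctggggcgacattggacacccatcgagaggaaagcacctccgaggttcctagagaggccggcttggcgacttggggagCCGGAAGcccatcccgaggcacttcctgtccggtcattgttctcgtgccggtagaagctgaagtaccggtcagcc
ZNF239 (chr10:43574567-43574866, minus strand): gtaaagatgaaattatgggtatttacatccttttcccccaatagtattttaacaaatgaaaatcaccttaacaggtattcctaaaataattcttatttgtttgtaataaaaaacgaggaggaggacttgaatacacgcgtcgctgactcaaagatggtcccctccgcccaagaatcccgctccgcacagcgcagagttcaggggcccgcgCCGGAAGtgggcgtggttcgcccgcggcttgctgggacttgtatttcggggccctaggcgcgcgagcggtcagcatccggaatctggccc
ZNF335 (chr20:45972154-45972453, minus strand): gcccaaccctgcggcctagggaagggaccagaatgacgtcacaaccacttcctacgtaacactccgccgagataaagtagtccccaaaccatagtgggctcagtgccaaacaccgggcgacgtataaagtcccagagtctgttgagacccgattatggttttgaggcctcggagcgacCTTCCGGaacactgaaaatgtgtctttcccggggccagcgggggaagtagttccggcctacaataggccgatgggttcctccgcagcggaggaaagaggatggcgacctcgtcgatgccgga
ZNF277 (chr7:112206445-112206744, plus strand): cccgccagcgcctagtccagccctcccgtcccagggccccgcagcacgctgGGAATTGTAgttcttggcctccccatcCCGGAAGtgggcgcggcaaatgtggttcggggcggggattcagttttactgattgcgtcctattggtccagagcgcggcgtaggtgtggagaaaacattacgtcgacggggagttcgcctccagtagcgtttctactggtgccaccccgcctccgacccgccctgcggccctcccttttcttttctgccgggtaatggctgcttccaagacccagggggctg
In ZNF551 the capitals start at base 5 after the start, in ZNF35 at -25, in ZNF239 at -40 and in ZNF335 at -72. The window of ZNF629, the gene with the largest difference between the controls, holds neither sequence, which says only that these letters are not in it. In ZNF277 the ETS-type match starts at -172 and the other match at -199. TACAATTCC or its reverse complement was found in 2.21% of ZNF windows, those of ZNF140, ZNF180, ZNF277 and ZNF451, against 0.437% of the windows of other measured genes. AAGATGGCG, a core of the YY1 motif, was in 2.21% against 3.34%, and TGACGTCA, the cAMP response element, which is its own reverse complement, in 4.42% against 3.04%. The number of CG dinucleotides, the bases that CXXC domains bind, had a median of 22 per 300-base window in ZNF genes and 24 in other genes.

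**Figure D1:**
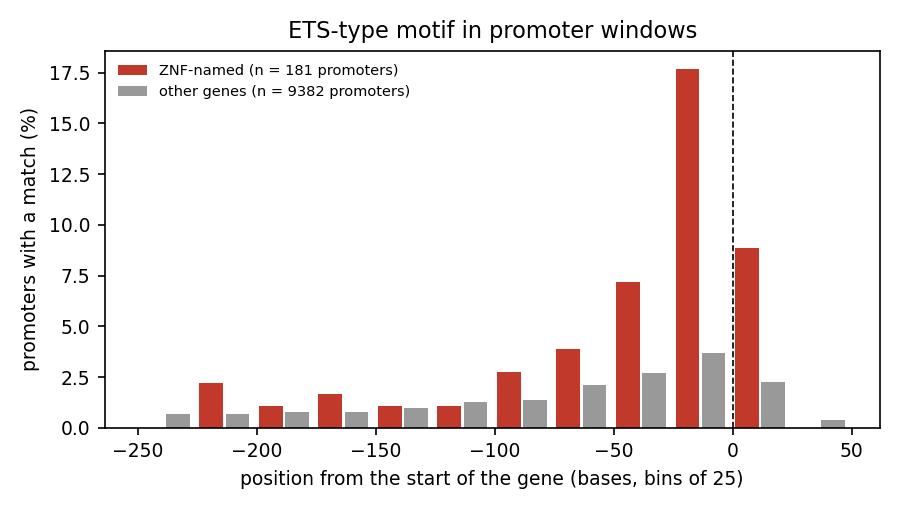
Share of promoter windows with the ETS-type sequence CCGGAAG on either strand (vertical axis, percent of windows) by the position of its first base from the start of the gene (horizontal axis, bases, bins of 25), for 181 ZNF-named genes in red and 9382 other measured genes in grey. The bin just before the start holds a match in 17.7% of ZNF windows and 3.68% of the others.

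ZNF genes were less often bright than other genes on these arrays. Their mean levels had a median of 6.85 log2 (quartiles 5.04 and 7.88), against 7.30 for the other genes (quartiles 5.33 and 9.31). Levels within the family ran from 2.44 to 12.0. ZNF706, which encodes a small zinc finger protein, was the brightest at 11.96, followed by ZNF207 at 11.69, whose product binds BUB3 at kinetochores, and by ZNF146 at 10.94, a protein made almost only of zinc fingers. ZNF682 (2.44), ZNF157 (2.44) and ZNF750 (2.55) were the dimmest; probe sets differ in binding strength, so these levels order signals and not transcript numbers. Of the 210 probe sets, 55 end in _s_at and 30 in _x_at, names given to probe sets that can read several transcripts, and since the zinc fingers of paralogues are much alike, such values are uncertain as to the gene.

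As a family, ZNF genes were highest in empty vector arrays and lowest in scrambled shRNA arrays. The median deviation of the 210 genes from their own 12-array means was 0.0624, 0.0698 and 0.0221 log2 in the empty vector arrays and -0.0441, -0.0712 and -0.0540 in the scrambled shRNA arrays. It was 0.0206, -0.00955 and -0.0549 in the overexpression arrays and 0.0803, -0.00820 and 0.0115 in the knockdown arrays. The group mean was 0.0514 ± 0.0257 (SD, n = 3) for empty vector, -0.0146 ± 0.0380 for overexpression, -0.0564 ± 0.0137 for scrambled shRNA and 0.0279 ± 0.0465 for knockdown. Empty vector and scrambled shRNA arrays did not overlap, and the overexpression arrays lay across the space between them, with 1 array just under the scrambled shRNA median. The knockdown arrays all stood above the scrambled shRNA arrays and overlapped those of the empty vector. Over other genes of like level the same quantity stayed between -0.0198 and 0.0274 on all 12 arrays. Scrambled shRNA was the lowest of the 4 groups for 97 ZNF genes (46.2%), against 29.1% of other genes, and empty vector the highest for 77 (36.7%), against 23.2%.

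**Figure D2:**
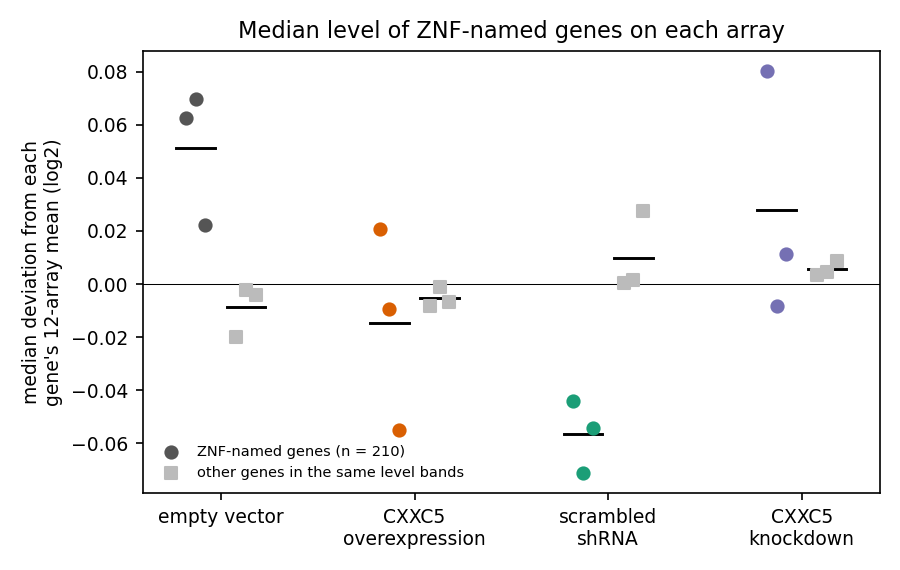
Median deviation of 210 ZNF-named genes from each gene's mean over 12 arrays (coloured circles, 1 per array) and the same for other genes in the same 5 bands of mean level (grey squares), with horizontal lines for the mean of 3 arrays; the vertical axis is in log2 units and the horizontal axis gives the group. The scrambled shRNA circles lie between -0.0712 and -0.0441, below every empty vector circle.

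How far the groups lay apart was ordinary for these arrays; the direction was not. The standard deviation between the 4 group means had a median of 0.114 log2 in ZNF genes and 0.111 in other genes, and the spread within groups was 0.119 and 0.111. With limma's moderated F test over the 4 groups, 70 of 210 ZNF genes (33.3%) differed at an adjusted p under 0.05 (Benjamini-Hochberg over all genes), against 33.2% of all genes. ZNF629 (0.470), ZNF551 (0.468), ZNF268 (0.404) and ZNF623 (0.377) had the widest spread of group means in the family.

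Between the controls, ZNF genes were mostly lower with scrambled shRNA than with empty vector. Of 210 genes, 50 were lower and 13 higher (limma, adjusted p under 0.05), against 15.3% and 16.2% of all genes called lower and higher; the family's shares were 23.8% and 6.19%. The total of 63 (30%) was near the 31.5% of all genes. Without regard to the test, the 3 arrays of each control did not overlap for 71 ZNF genes downward and 24 upward, against 21.9% and 23.8% of all genes (45.7% in either direction). With each array centred on its median the split was 43 lower and 19 higher, with the shares of all genes not counted in that fit. The median difference was -0.111 log2 in ZNF genes and 0.0187 in other genes, and 137 ZNF genes (65.2%) lay below 0 against 46.9% of other genes. Scrambled shRNA replicate 3 had a GAPDH control signal that was weak at the 5′ end (3′ minus 5′ difference 0.87 log2, against 0.227 to 0.335 on the other arrays). Without that array 45 ZNF genes were lower and 10 higher, with a median of -0.114. The share of all genes called in that fit was not counted either.

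ZNF629 was 7.87, 7.97 and 8.05 log2 in the empty vector arrays, 7.63, 7.28 and 7.48 with overexpression, 6.83, 6.69 and 6.99 with scrambled shRNA and 7.64, 7.52 and 7.58 with knockdown. No scrambled shRNA array reached any array of another group. The difference between the controls was -1.13 log2 (SE 0.0966, 2.19-fold, adjusted p = 1.07e-05, limma). ZNF551, a KRAB zinc finger gene, was 6.05, 6.00 and 5.88 with empty vector, 5.58, 5.74 and 5.52 with overexpression, 4.99, 4.90 and 4.69 with scrambled shRNA and 5.80, 5.40 and 5.51 with knockdown. Again the scrambled shRNA arrays lay apart from all others, at -1.12 from empty vector (SE 0.109, 2.17-fold, adjusted p = 2.56e-05). ZNF623 was 7.20, 7.43 and 7.32 with empty vector and 6.55, 6.37 and 6.43 with scrambled shRNA, a difference of -0.87 (SE 0.109, adjusted p = 0.000163). These values are differences of 1 probe set per gene, as are all that follow. Genes named for size had to have groups that do not overlap in the comparison. The separation of their arrays is thus no further support.

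Further genes lower with scrambled shRNA were ZNF268 (-0.86), ZNF227 (-0.83), ZNF770 (-0.66), ZNF142 (-0.63) and ZNF195 (-0.62), all at adjusted p-values of at most 0.0237. ZNF227 and ZNF195 leaned on scrambled shRNA replicate 3: without it ZNF227 stood at -0.562, still called, and the ZNF195 call ended, as it did without empty vector replicate 1 or 2. ZNF142 was 8.00, 8.08 and 8.06 with empty vector and 7.43, 7.29 and 7.52 with scrambled shRNA, while its overexpression arrays all read 7.81 and its knockdown arrays 7.64 to 7.81. It thus had empty vector arrays alone at the top and scrambled shRNA arrays alone at the bottom (-0.63, SE 0.0686, adjusted p = 5.57e-05, limma). The 50 lower genes had a median difference of -0.437 and the 13 higher ones of 0.367. ZNF473, whose product ZFP100 takes part in processing histone transcripts, was lower by 0.47 on the log2 scale, and its other probe set stood at -0.136. ZNF609, which encodes a partner of the cohesin loader NIPBL, was lower by 0.42, and its other probe sets stood at -0.110 and -0.370.

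Of the 13 genes higher with scrambled shRNA, ZNF335 and ZNF692 moved far. ZNF335, a component of histone methyltransferase complexes, was 7.51, 7.26 and 7.46 with empty vector, 7.74, 7.81 and 7.67 with overexpression, 8.05, 7.97 and 8.04 with scrambled shRNA and 7.71, 7.66 and 7.51 with knockdown. Scrambled shRNA arrays were the highest, at 0.61 above empty vector (SE 0.0785, adjusted p = 0.000183); the other ZNF335 probe sets, at mean levels of 5.10 and 5.42, stood at 0.148 and 0.141. ZNF692, a repressor of the gluconeogenic gene PCK1, stood at 0.64 (SE 0.0799, adjusted p = 0.000158), and its 3 scrambled shRNA arrays (9.54, 9.60 and 9.67) exceeded all the others, of which the highest was 9.39. ZNF506 was higher by 0.70 (adjusted p = 0.0018), but its other, dim probe set stood at -0.331 and the call ended with the mean of the probe sets. ZNF267 was 8.88, 8.95 and 9.17 with scrambled shRNA, and its 9 other arrays lay between 8.49 and 8.66, so that here a single group stood apart (0.44, SE 0.0742, adjusted p = 0.00113, limma). ZNF200 (0.45), ZNF175 (0.42), known as a repressor of the HIV-1 promoter, ZNF76 (0.37) and ZNF277 (0.37) were also higher.

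**Figure D3:**
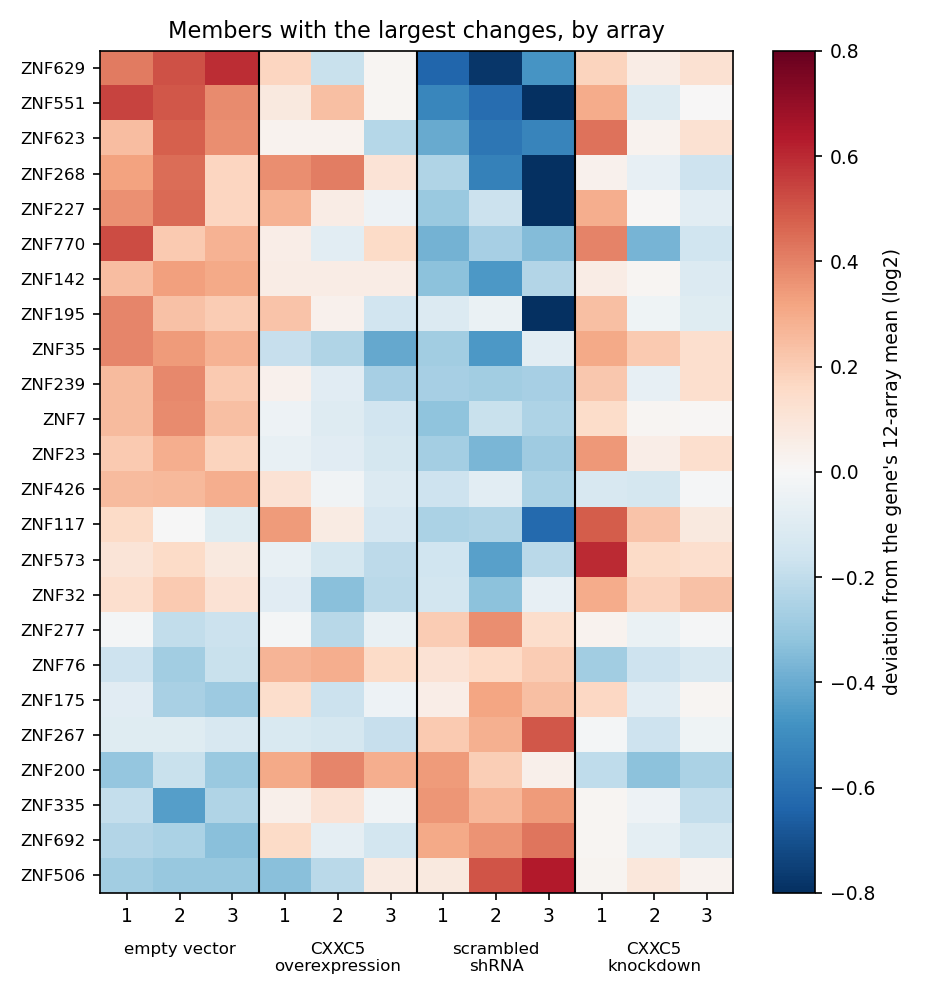
Deviation of each array from the gene's mean over 12 arrays (colour, log2 units, red above and blue below) for the 24 ZNF genes with the largest called differences between the controls or between either CXXC5 condition and its own control; columns are replicates 1 to 3 of the 4 groups, and rows run from the most negative to the most positive difference between the controls. In the upper rows the empty vector arrays are red and the scrambled shRNA arrays blue, as in ZNF629 (-1.13 between the controls); in the bottom rows, from ZNF277 to ZNF506, this is turned round.

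With CXXC5 knockdown, ZNF genes were mostly above their level with scrambled shRNA. Of 210 genes 31 rose and 5 fell, shares of 14.8% and 2.38%, against 8.79% and 5.22% of all genes; the 36 calls make 17.1%, against 14% of all genes. The arrays of the groups did not overlap for 54 ZNF genes upward and 14 downward, against 18.2% and 14.2% of all genes (32.4% in either direction). The median change was 0.0732 log2 in ZNF genes and -0.0105 in other genes. The ZNF value was 0.114 without knockdown replicate 2, 0.0516 without knockdown replicate 1 and 0.0336 with each array centred on its median. Centring moves other genes by the same amount, so their gap to the ZNF genes did not change. ZNF629 rose by 0.75 (SE 0.0966, 1.68-fold, adjusted p = 0.000445), ZNF551 by 0.71 (SE 0.109, adjusted p = 0.00124) and ZNF623 by 0.70 (SE 0.109, adjusted p = 0.0014). This comparison shares its scrambled shRNA arrays with that between the controls, and these are the arrays that stood apart. With 138 genes left after removing probe sets ending in _x_at or _s_at, 19 rose and 2 fell. The shares of all genes were not counted in that fit.

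ZNF117 (0.63), ZNF573 (0.57), ZNF35 (0.49), ZNF23 (0.49) and ZNF268 (0.48) rose as well. The ZNF117 value came from an _x_at probe set; its dim plain probe set stood at 0.181, which was not called. The ZNF268 call ended when any of scrambled shRNA replicates 2 and 3 and knockdown replicates 1 to 3 was left out. ZNF23 was 7.13, 7.21 and 7.10 with empty vector, 6.86, 6.83 and 6.78 with overexpression, 6.65, 6.55 and 6.64 with scrambled shRNA and 7.27, 6.97 and 7.06 with knockdown. Its overexpression and scrambled shRNA arrays were all below those of the other two groups. The 31 genes that rose had a median change of 0.365. ZNF207, the BUB3 partner, was among the most even genes within a group, at 11.48, 11.50 and 11.46 with scrambled shRNA and between 11.71 and 11.78 on the 9 other arrays. It rose by 0.28 with knockdown (SE 0.0483, adjusted p = 0.00258), and its other probe set, also of a shared kind, stood at 0.410.

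The 5 genes that fell with knockdown were ZNF200 (-0.46), ZNF692 (-0.43), ZNF267 (-0.40), ZNF335 (-0.39) and ZNF76 (-0.35), at adjusted p-values from 0.00236 to 0.0058. The ZNF335 call rests on its brightest probe set: the others stood at 0.0894 and -0.0973, and the mean of the probe sets at -0.134, which was not called. All 5 were also among the 13 genes higher with scrambled shRNA than with empty vector, a comparison with the same scrambled shRNA arrays. ZNF76 encodes a close paralogue of ZNF143 that activates promoters of small nuclear RNA genes. It was 7.85, 7.74 and 7.84 log2 with empty vector, 8.29, 8.31 and 8.17 with overexpression, 8.13, 8.17 and 8.22 with scrambled shRNA and 7.74, 7.85 and 7.89 with knockdown. Thus overexpression and scrambled shRNA arrays were high and empty vector and knockdown arrays low. ZNF200 had the same order, at 8.45, 8.58 and 8.47 with empty vector, 9.07, 9.15 and 9.05 with overexpression, 9.10, 8.96 and 8.80 with scrambled shRNA and 8.56, 8.43 and 8.51 with knockdown. The ZNF200 value came from an _s_at probe set; its plain probe set stood at -0.305 with knockdown and 0.360 with overexpression, neither of them called, and at 0.165 between the controls, also not called.

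With CXXC5 overexpression few ZNF genes were called, at a share near that of all genes. Against empty vector 3 rose and 9 fell, shares of 1.43% and 4.29%, against 3.61% and 3.37% of all genes; the 12 calls make 5.71%, against 6.98%. When empty vector replicate 2 or overexpression replicate 2 was left out 5 calls were made, and 6 when overexpression replicate 3 was, with 3 of them downward each time. With array weights 28 were called (6 up, 22 down). The share of all genes called in these alternative fits was not counted. The median change was -0.0574 log2 in ZNF genes and 0.00228 in other genes, and 139 of 210 ZNF genes (66.2%) lay below 0 against 49.2% of other genes. The arrays did not overlap for 41 ZNF genes downward and 13 upward, against 15.3% and 12.6% of all genes (27.9% in either direction). Small shifts were thus spread over the family, while the calls were few.

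ZNF35 was 7.69, 7.64 and 7.57 log2 with empty vector, 7.11, 7.06 and 6.89 with overexpression, 7.02, 6.84 and 7.22 with scrambled shRNA and 7.60, 7.51 and 7.43 with knockdown. It fell by 0.61 with overexpression (SE 0.0942, 1.53-fold, adjusted p = 0.00221, limma). ZNF7 was 8.58, 8.71 and 8.57 with empty vector and 8.29, 8.22 and 8.18 with overexpression. ZNF629 (-0.50) and ZNF7 (-0.39) fell too, and these calls also held when any array was left out. ZNF623 (-0.42), ZNF239 (-0.39), ZNF32 (-0.37), ZNF23 (-0.32), ZNF426 (-0.28) and ZNF3 (-0.27) fell as well. The calls of the first 5 of these 6 ended when empty vector replicate 2, overexpression replicate 2 or overexpression replicate 3 was left out. ZNF200 rose by 0.59 (SE 0.0778, adjusted p = 0.000812), ZNF76 by 0.45 (SE 0.0645, adjusted p = 0.00142) and ZNF335 by 0.33 (SE 0.0785, adjusted p = 0.0247). The ZNF335 call ended without empty vector replicate 2 or overexpression replicate 1 or 2, or once its probe sets were averaged.

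**Figure D4:**
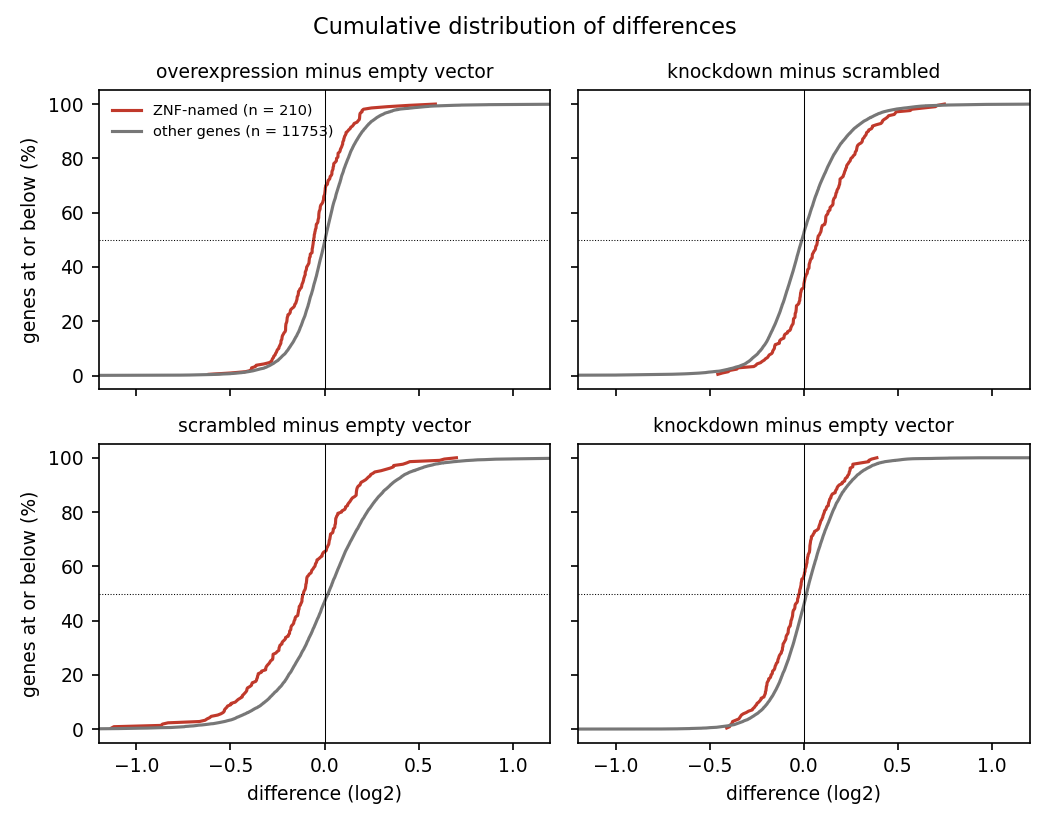
Cumulative share of genes (vertical axis, percent) by their log2 difference (horizontal axis, shown from -1.2 to 1.2) in 4 comparisons, for 210 ZNF-named genes in red and all other genes in grey; the dotted line marks 50%, where the medians are read. The red curve lies to the left of the grey one between the controls (medians -0.111 and 0.0187) and with overexpression (-0.0574 and 0.00228) and to its right in knockdown minus scrambled shRNA (0.0732 and -0.0105).

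The overexpression and knockdown comparisons share no array, and 11 ZNF genes were called in both, each in opposite directions. These were ZNF3, ZNF7, ZNF23, ZNF32, ZNF35, ZNF239, ZNF623 and ZNF629, which fell with overexpression and rose with knockdown, and ZNF76, ZNF200 and ZNF335, which did the reverse; the ZNF200 and ZNF335 calls depended on the probe set, as given above. They make up 91.7% of the overexpression calls and 30.6% of the knockdown calls. Among other genes the same held for 500 genes, 60.8% of the overexpression calls and 30.5% of the knockdown calls, and 493 of these 500 moved in opposite directions, so opposite movement was general on these arrays. The difference of the effects, knockdown minus overexpression, passed the test for 45 ZNF genes upward and 7 downward (limma), against 12.3% and 8.15% of all genes (52 or 24.8%, against 20.4%, in either direction). It was 1.25 for ZNF629 (SE 0.137), 1.12 for ZNF623, 1.10 for ZNF35 and 1.07 for ZNF551, and -1.05 for ZNF200 (SE 0.110), -0.80 for ZNF76, -0.73 for ZNF335 and -0.68 for ZNF692.

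Against the empty vector, few ZNF genes were called with knockdown, and how many depended on the arrays and their weights. These groups also differ in delivery and vector, which cannot be told apart from the knockdown in this comparison. Of 210 genes 3 rose and 4 fell, against 3.02% and 1.52% of all genes (4.54% in either direction), with a median of -0.0239 in ZNF genes and 0.0143 in other genes. The count was 26 (11 up, 15 down) with array weights. How many of all genes were called in this or the other alternative fits was not counted. The ZNF median was -0.0544 without knockdown replicate 1 and -0.00814 without knockdown replicate 2. ZNF318 (0.39), ZNF250 (0.36) and ZNF343 (0.30) were higher than with empty vector, and ZNF629 (-0.39), ZNF426 (-0.36), ZNF473 (-0.34) and ZNF142 (-0.31) lower. ZNF318 was 9.21, 9.01 and 9.10 with knockdown, above its 9 other arrays, which lay between 8.39 and 8.87. Its other probe set did not share this, at -0.0211 from empty vector, and neither the ZNF318 nor the ZNF473 call held with the mean of the probe sets. With each array centred on its median 2 were higher and 6 lower. The arrays did not overlap for 23 ZNF genes upward and 24 downward, against 17.5% and 12.5% of all genes (30% in either direction). None of these 7 calls held in every fit that left out an array: with limma the count was 0 without empty vector replicate 3 or knockdown replicate 2, with 38 and 39 genes at an unadjusted p under 0.05, and 1 without empty vector replicate 2 or knockdown replicate 3 and 4 without empty vector replicate 1.

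Genes of like level were compared in 5 bands of mean level, each with 42 ZNF genes. Between the controls the contrast with other genes was widest at middle levels and slight in the brightest band. From 4.57 to 6.27 log2, 19% of ZNF genes were lower and 2.38% higher, while among 2612 other genes 7.24% were lower and 18.3% higher. From 6.27 to 7.29 the ZNF shares were 35.7% and 4.76% and those of other genes 16.8% and 20.8%. In the brightest band, above 8.22, 23.8% of ZNF genes were lower and 19% higher, close to the 22.0% and 17.7% of other genes. Weighted to the levels of the ZNF genes, other genes were called lower in 15.0% and higher in 16.2% between the controls, and higher in 8.20% and lower in 5.01% with knockdown against scrambled shRNA. With overexpression the weighted shares were 3.43% up and 3.26% down. The median standard deviation between group means, weighted the same way, was 0.120 in ZNF genes and 0.117 in others.

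**Figure D5:**
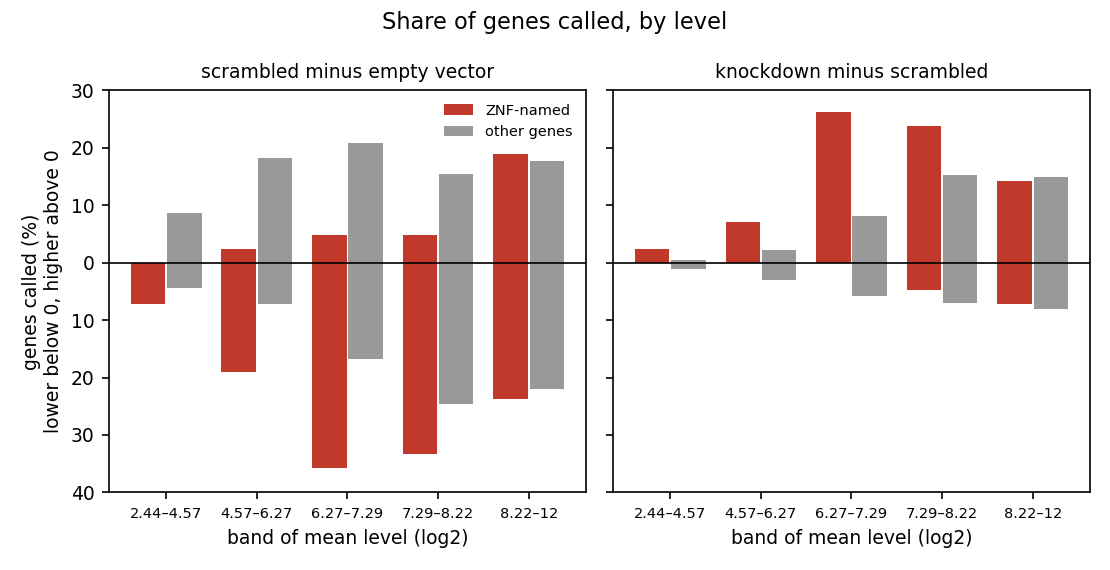
Percent of genes called higher (bars above 0) and lower (bars below 0) at an adjusted p under 0.05 in 5 bands of mean log2 level, for ZNF-named genes in red (42 per band) and other genes in grey, between the controls on the left and in knockdown minus scrambled shRNA on the right. In the third band 35.7% of ZNF genes and 16.8% of others are lower between the controls, and in the brightest band the bars are nearly equal.

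Genes of known role moved unevenly. ZNF281, a GC-box factor of stem cells, was lower with scrambled shRNA than with empty vector at -0.31 (adjusted p = 0.00798), and ZNF593, a ribosome assembly factor, at -0.34 (adjusted p = 0.00678). ZNF706 (0.21) and the SUMO ligase gene ZNF451 (0.26) were higher there; the other ZNF451 probe set stood further out, at 0.959 between the controls and -0.604 with knockdown against scrambled shRNA. ZNF165, a cancer-testis gene, stood at -0.37 (adjusted p = 0.047), a call that ended without any of 7 arrays: empty vector 2 and 3, overexpression 1, scrambled shRNA 2 and 3, and knockdown 1 and 3. The oncogene ZNF217, whose product recruits CtBP, was 9.11 to 9.24 with empty vector, 9.08 to 9.21 with overexpression, 9.20 to 9.36 with scrambled shRNA and 9.16 to 9.41 with knockdown, so its groups overlapped in all 4 comparisons of group pairs and none was called. No call was made in these 4 comparisons for ZNF274, which brings SETDB1 to the 3′ ends of ZNF genes, at 0.12 between the controls (adjusted p = 0.113). The same holds for ZNF10, the source of the KRAB domain most used in the laboratory (-0.18), the GC-box factor ZNF148 (-0.31), the nucleolar protein gene ZNF330 (-0.13) and ZNF638, known for silencing unintegrated retroviral DNA (-0.16), all values between the controls. The other ZNF148 probe set, which was not tested, stood at -0.754 there. For ZNF330 the difference of the effects was called, at 0.37 (adjusted p = 0.00636, limma).

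Neighbouring genes were compared since many ZNF genes lie in clusters. In the RefSeq gene order 136 of the 210 genes had another ZNF gene as the next protein-coding gene on at least 1 side. Of these 31 (22.8%) were lower and 4 (2.94%) higher between the controls (median -0.125). Of the 74 others 19 (25.7%) were lower and 9 (12.2%) higher (median -0.0694), against 15.3% and 16.2% of all genes. The 230 genes outside the family that lie next to a ZNF gene were lower in 41 cases (17.8%) and higher in 34 (14.8%). Their median was -0.0135. On chromosome 19, which holds 98 of the genes at a median level of 5.90 log2, 18 (18.4%) were lower and 3 (3.06%) higher. Of 700 other genes of that chromosome 72 (10.3%) were lower and 154 (22%) higher. Of the 112 ZNF genes elsewhere, brighter at a median of 7.32, 32 (28.6%) were lower and 10 (8.93%) higher.

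ZNF genes with and without the ETS-type sequence in the promoter were called in similar shares; their difference was not tested. Of the 75 ZNF genes with it 19 were lower and 6 higher between the controls (25.3% and 8.00%), and of the 106 without it 24 and 4 (22.6% and 3.77%). Their medians were -0.136 and -0.0982. Among other genes, which were brighter with the sequence (median level 8.97) than without (7.19), 20.0% were lower with it and 15.5% without.

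Zinc finger genes under other names gave small lists. Between the controls 7 of 22 ZBTB genes were lower and 4 higher (median -0.153), 3 of 8 ZSCAN genes lower and 1 higher (-0.159), and 2 of 6 ZKSCAN genes lower (-0.163). Of 5 ZFP genes 1 was lower and 1 higher (0.0123). Of all genes 15.3% were lower and 16.2% higher there. With knockdown against scrambled shRNA 2 ZBTB genes rose and 4 fell, and 2 ZSCAN and 2 ZKSCAN genes rose. Of all genes 8.79% rose and 5.22% fell in that comparison. Of the 19 ZNF genes with a letter in the symbol 8 were lower between the controls, with a median of -0.204.

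Some partners of KRAB proteins were called. Of 20 measured genes on a list of corepressor and chromatin genes, 5 were lower and 2 higher between the controls (median -0.107), where 15.3% and 16.2% of all genes were. With knockdown against scrambled shRNA 4 rose and 1 fell (0.0714), against 8.79% and 5.22% of all genes. ATF7IP, which stabilises SETDB1, stood at -0.52 between the controls and 0.42 with knockdown. The H3K9 methyltransferase gene EHMT2 stood at -0.56 and 0.52, and TRIM28 at -0.54 and 0.21, the latter not called (adjusted p = 0.136). SETDB1 went the other way, at 0.46 between the controls and -0.31 with knockdown. With overexpression 2 of the 20 were called, DNMT3B (-0.35), a DNA methyltransferase gene, and CHD4 (-0.21), of a nucleosome remodelling complex, both lower. Of all genes 3.37% were called lower and 3.61% higher there.

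The median profile of the ZNF genes over the 12 arrays was most closely followed, among genes outside the family, by SNRK (Pearson r = 0.969), ANK3 (0.967), TRIM37 (0.963), PPP1R3D (0.961) and ATF7IP (0.951). SNRK, which encodes a kinase, had group means of 8.18 (empty vector) and 7.95 (overexpression) in the first pair of groups and 7.83 (scrambled shRNA) and 8.16 (knockdown) in the second. Within the family ZNF239 (0.953), ZNF23 (0.941), ZNF623 (0.934), ZNF609 (0.926) and ZNF84 (0.909) were closest. The correlations share the arrays and the 4 groups and were picked as the highest, so they describe a likeness of pattern over n = 12.

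Markers of the labelled line were bright: the 9 measured erythroid genes had means from 8.00 to 13.4. Of the markers of other cell types CD3D (10.9), EPCAM (11.2) and KRT19 (11) were bright, and monocyte markers were between 4.24 and 5.02 and B cell markers between 4.64 and 5.46. Of the 9 erythroid genes 4 were higher and 3 lower between the controls, and of 21 markers of other types 3 were higher and 1 lower. Of all genes 16.2% were higher and 15.3% lower. The part of these markers in the ZNF differences was not tested. The mean over the 9 erythroid genes was 10.5 to 10.6 with empty vector, 10.5 with overexpression, 10.7 with scrambled shRNA and 10.6 to 10.7 with knockdown. The mean over 5 T cell markers was 6.35 to 6.40, 6.47 to 6.51, 6.45 to 6.58 and 6.37 to 6.45 in the same order. The means over B cell, monocyte, fibroblast and epithelial markers overlapped between the controls, except that fibroblast markers, at 5.05 to 5.19 and 5.19 to 5.29, only touched.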

How the data were processed

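Total RNA of 12 K562 samples (500 ng each) was read on Affymetrix 3′ expression arrays, 1 array per sample. The authors deposited 1 log2 value per probe set, on a common scale between arrays (array medians 6.65 to 6.71); the log2 scale was inferred from the values. Per the submitters' processing notes the software was Affymetrix Expression Console; its version and the way probes were summarised are each not given in the sources used here. Arrays have no depth; their number limits the precision.

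Of 22277 probe sets, 62 controls, 1043 with several gene symbols (15 naming a ZNF gene) and 2108 with none were left out. The platform's symbols were checked through RefSeq gene identifiers (0 changed). Of the 210 genes 51 had several probe sets. limma 3.58.1 in R 4.3.3 fitted 1 coefficient per group over 12 arrays (8 residual degrees of freedom) on all 11963 genes, with eBayes; tests were two-sided with Benjamini-Hochberg adjustment, and a call is an adjusted p under 0.05. The fit was tested on simulated data. Groups not overlapping were required of genes named for size: up to 8 each way per comparison, with the 4 largest differences of effects each way, the 10 brightest genes, genes of a role list and, chosen after their values were seen, the 3 dimmest, ZNF3, ZNF84 and those with a TACAATTCC match. The members, lists and motifs were chosen with earlier results of these data known. A planned split by protein domains was not run. Replicate correlations were 0.996 to 0.998, and 0 array pairs were identical. Alternatives were other normalizations, a filter on low levels, other probe set choices, other priors, array weights, a replicate block and leaving out arrays. Figures were drawn with matplotlib 3.10.9.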

Additional observations from a re-analysis of the deposited data

How the results depend on the processing

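Directions of the family medians held in every alternative run. For the counts of ZNF calls in alternative runs below, the share of all genes called in the same run was not counted. Of 1967 refits of the 92 called values of named genes, 1819 stayed called, 148 lost the call and 0 changed sign. Adding the ZNF genes with a letter in the symbol repeated the main fit for these genes, so those refits could not lose a call. Some settings cannot change the sign of a difference: the low-level filter, another prior, the compared arrays alone and arrays left out of other groups. These counts are thus partly fixed by the settings. Median centring moved the family median to -0.0725 between the controls and to 0.0336 with knockdown against scrambled shRNA. Centring moves every gene by the same amount, so the gap between ZNF and other genes stayed as it was. With the dimmest 40% of all genes removed, which leaves 121 ZNF genes, the family median between the controls was -0.140. That filter gave 21 overexpression calls, and array weights 28, with 26 for knockdown against empty vector. Fitting the compared arrays alone gave 4 there. Without probe sets ending in _x_at or _s_at, which leaves 138 ZNF genes, 21 were called with knockdown against scrambled shRNA, 31 for the difference of the effects and 46 over the 4 groups. Leaving out 1 array at a time gave 5 to 18 calls with overexpression, 25 to 38 with knockdown against scrambled shRNA, 50 to 66 between the controls, 0 to 8 for knockdown against empty vector, 40 to 52 for the difference of the effects and 54 to 65 over the 4 groups. The medians ranged from -0.0770 to -0.0454, 0.0516 to 0.114, -0.130 to -0.0968 and -0.0544 to -0.00814 in the first 4 of these. With the replicate block 11 genes were called for knockdown against empty vector, 72 between the controls, 41 with knockdown and 13 with overexpression; 8 of 12 samples correlated best with their own number, a hint from the data of an effect shared by number, but 10 of 18 same-numbered pairs, not all, had deviations correlated above 0.1 (-0.115 to 0.395), so the numbers were not taken as pairs. With 10 level bands other genes were called lower in 15.3% and higher in 15.8% between the controls. The fit on compared arrays alone could not be made for the difference of the effects. In the main fit 3 of the 42 dimmest ZNF genes were called between the controls, all of them lower (7.14%). Among 1821 other genes of that band 4.34% were lower and 8.62% higher. The spread within groups of these dim ZNF genes (0.130) was near that of the next bands (0.138 and 0.127). Their spread between group means was lower (0.0827, against 0.111 and 0.157). The cause of these shifts was not tested.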
